A study of Cavia porcellus with 10 samples.

Results

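The genes described here are 46 symbols of the interferon response and of antigen presentation, matched by name, ignoring case, to the lines of a scleral RNA-seq count table. A line matched 37 of them, out of 17642 lines with a symbol in all, and where a symbol stood on several lines the line with the highest mean count was used. Of the 37, 27 are interferon-induced genes and the factors that drive them, and 10 act in antigen presentation. IFIT1, IFIT2, MX2, OAS2, IFI44L, IFI6, IFI27, GBP2 and SP100 matched no line and were not analysed here. IFI44 had a line with 1 read in all 10 libraries together and was below the count filter, so 36 genes were tested. The tissue was the sclera, the collagen-rich outer wall of the eye, of male guinea pigs (Cavia porcellus) aged 2 to 3 weeks. In the myopia group lenses that induce nearsightedness were placed on both eyes, and the control group had no treatment. Each group had 5 libraries, numbered 1 to 5 in the labels. Neither the strain nor the length of lens wear is given in the sources used here. The labels do not say which eyes came from the same animal, so the p-values measure the spread between these libraries, which may be smaller than the spread between animals.

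Interferons are secreted proteins that bind receptors on nearly every cell type. The receptors activate Janus kinases, which phosphorylate STAT proteins. STAT2 joins IRF9 in a complex that switches on a shared set of antiviral genes. The response to interferon gamma also raises the machinery that cuts proteins into peptides and loads them on MHC molecules. Fibroblasts, endothelium and resident macrophages all carry a low resting output of these genes, kept up by trace amounts of interferon.

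The libraries held 32309258 to 34055139 reads in myopia and 32568123 to 35430797 in control. All 10 fibroblast genes listed were measured, led by COL1A1 at 35555 ± 3273 counts per 1000000 reads (CPM) in myopia and 82728 ± 9358 in control (mean ± SD, n = 5 each). Such genes cannot tell sclera from other connective tissue, so the tissue label was not tested. On the first principal component of log2 CPM, which held 77.1% of the variance, myopia libraries scored 61.5 to 72.5 and control libraries -94.6 to -24.6. Control 4 and control 5 lay nearest to the myopia libraries. The groups differed in most of the transcriptome: 71.9% of 14683 genes tested passed an adjusted p of 0.05 in the edgeR quasi-likelihood test. Of all genes tested, 35.1% were lower in myopia and 36.9% higher, and these shares are the background for every count that follows. Levels are in CPM scaled by trimmed mean of M values (TMM) factors. When libraries were scaled by their total count alone, the median over all genes moved to a log2 fold change of 0.47, against 0.03 with TMM, so directions here are relative to the TMM scale. Then 10384 of the 14683 genes passed, 7633 of them as higher in myopia (73.5% of those that passed) and the others as lower. These numbers are the background for every count with total-count scaling.

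Most genes of the interferon response and of antigen presentation fell in myopia. Of the 36 genes tested, 24 fell (66.7%), 6 rose (16.7%) and 6 did not pass. Over all genes tested, 35.1% fell and 36.9% rose. All myopia libraries lay below all control libraries for 19 of the 36, where the share over all genes was 28.0%, and above them for 3, where it was 29.8%. Together, 61.1% of the 36 had groups without overlap, against 57.8% of all genes. The 36 log2 fold changes had a median of -0.85. In bulk tissue, fewer cells of a type and less RNA per cell cannot be told apart. With total-count scaling 18 of the 36 fell and 9 rose. On that scale 10384 of all 14683 genes passed, 7633 of them as higher (73.5% of the calls). IRF1 and ADAR, both lower on the TMM scale, then had log2 fold changes of 0.021 and 0.068, and IFIT3 and DTX3L, which had not passed, also turned positive.

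**Figure D1:**
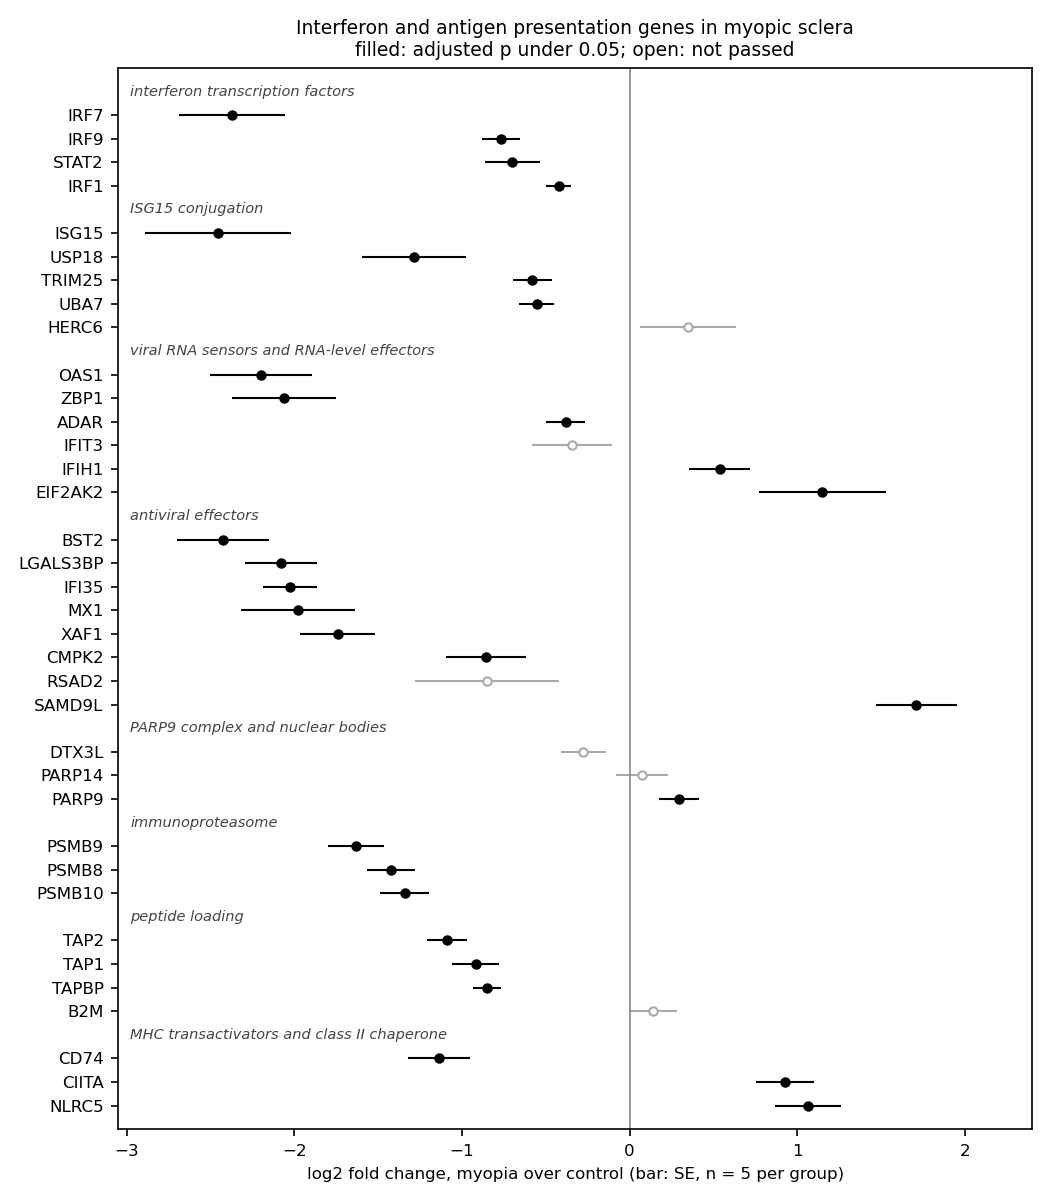
Log2 fold change of myopia over control (horizontal axis) for each of the 36 genes tested, grouped by role, with SE bars (n = 5 libraries per group); filled points passed an adjusted p of 0.05 and open points did not. ISG15 lies farthest to the left at -2.45 and SAMD9L farthest to the right at 1.71, and the immunoproteasome subunits lie between -1.63 and -1.34.

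All 4 transcription factors of the pathway fell, with IRF1 turning positive under total-count scaling. IRF7, the factor that amplifies interferon production and is itself interferon-induced, changed most. It stood at 128, 195, 131, 81.8 and 62.9 CPM in myopia libraries 1 to 5, against 971, 649.8, 403, 634 and 439 CPM in control libraries 1 to 5. The highest myopia library, myopia 2, was below the lowest control library, control 3, and the log2 fold change was -2.37 ± 0.32 (SE; adjusted p = 2.92e-05). IRF9, the DNA-binding partner of STAT2, ranged over 61.3 to 87.4 CPM in myopia and 108 to 141 CPM in control, with no overlap and a log2 fold change of -0.76 ± 0.11. STAT2 averaged 98.0 ± 23.3 CPM in myopia and 159 ± 29.8 CPM in control (log2 fold change -0.70 ± 0.16, adjusted p = 0.00162). Myopia 2, at the top of its group, overlapped the control range for STAT2, and the call ended with total-count scaling (adjusted p = 0.122). IRF1, a factor induced mainly by interferon gamma, varied least of the 4 within groups. It ranged from 38.5 to 43.6 CPM in myopia and from 51.1 to 56.6 CPM in control (log2 fold change -0.42 ± 0.07, adjusted p = 0.000178).

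Genes of the ISG15 system, which attaches a ubiquitin-like tag to proteins, fell in 4 of 5 cases (all genes: 35.1%). ISG15, the tag itself, stood at 59.6, 203, 111, 47.2 and 40.7 CPM in myopia libraries 1 to 5, against 758, 572, 322, 540.4 and 339 CPM in control libraries 1 to 5. The groups did not overlap, although myopia libraries differed among themselves by 4.99 times between the highest and the lowest. Its log2 fold change was -2.45 ± 0.44 (SE; adjusted p = 0.000272). USP18, the protease that removes the tag and damps receptor signalling, averaged 59.0 ± 32.1 CPM in myopia and 144 ± 35.8 CPM in control (log2 fold change -1.29 ± 0.31, adjusted p = 0.00246). Its myopia 2 library, at 110.2 CPM, lay within the control range of 97.4 to 194 CPM. UBA7, the enzyme that activates ISG15, and TRIM25, a ubiquitin ligase that also acts on the RNA sensor RIG-I, fell less, with log2 fold changes of -0.55 ± 0.11 and -0.58 ± 0.12. Both of those calls ended with total-count scaling (adjusted p = 0.295 and 0.335). HERC6, the main ISG15 ligase in mice, averaged 8.61 ± 3.46 CPM in myopia and 6.76 ± 2.44 CPM in control and did not pass (log2 fold change 0.35 ± 0.29, adjusted p = 0.287), but passed as higher with total-count scaling (0.79, adjusted p = 0.0215).

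Among the antiviral effectors, 6 of 8 genes tested fell (all genes: 35.1%), 1 rose (all genes: 36.9%) and 1 did not pass. Their log2 fold changes had a median of -1.86. BST2, the membrane protein tetherin that holds budding virions on the cell surface, stood at 342, 557, 508, 279.5 and 290.3 CPM in myopia libraries 1 to 5, against 3279, 2445, 1584, 2002 and 1318 CPM in control libraries 1 to 5 (log2 fold change -2.43 ± 0.28, adjusted p = 5.89e-06). MX1, a GTPase that blocks viral nucleocapsids, stood at 357, 613, 427, 229 and 161 CPM in myopia libraries 1 to 5, against 2057, 1389.5, 900.2, 1591 and 1099 CPM in control libraries 1 to 5 (log2 fold change -1.98 ± 0.34, adjusted p = 0.000201). For both genes every myopia library was below every control library, and myopia libraries differed by 3.80 times between the highest and the lowest for MX1 and by 1.99 times for BST2. LGALS3BP, a secreted galectin-binding glycoprotein, averaged 523 ± 125 CPM in myopia and 2208 ± 635 CPM in control (log2 fold change -2.08 ± 0.22). IFI35, a leucine zipper protein of the interferon response, averaged 32.6 ± 4.88 CPM in myopia and 133 ± 31.1 CPM in control (log2 fold change -2.03 ± 0.16, adjusted p = 4.15e-07). XAF1, a partner of the apoptosis inhibitor XIAP, averaged 16.2 ± 4.74 CPM in myopia and 54.0 ± 15.3 CPM in control (log2 fold change -1.74 ± 0.22). None of these 3 overlapped between the groups.

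CMPK2 and RSAD2 are neighbours in the guinea pig gene table and act in the same nucleotide pathway. CMPK2, a mitochondrial nucleotide kinase, averaged 21.9 ± 7.72 CPM in myopia and 39.6 ± 9.87 CPM in control (log2 fold change -0.86 ± 0.24, adjusted p = 0.00592). The call ended with total-count scaling (-0.42, adjusted p = 0.117) and with control 4 and control 5 left out together (-0.70, adjusted p = 0.0689). RSAD2 (viperin), which makes a nucleotide that stops viral RNA chains, stood at 37.7, 134, 48.8, 29.0 and 24.2 CPM in myopia libraries 1 to 5, against 128, 91.6, 49.2, 119 and 105 CPM in control libraries 1 to 5. Myopia 2 was above every control library, the other myopia libraries were below every control library, and the difference did not pass (log2 fold change -0.85 ± 0.43, adjusted p = 0.0929). Without myopia 2 the log2 fold change was -1.50 (adjusted p = 0.000356). Without control 3, the lowest control library for RSAD2, it was -1.02 (adjusted p = 0.0479). With all 10 libraries, RSAD2 also passed as lower with the replicate number as a block (-1.10, adjusted p = 0.0363), with limma-voom (-1.08, adjusted p = 0.0208) and with limma-voom quality weights (-0.98, adjusted p = 0.0302).

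SAMD9L, which restricts viral protein synthesis and cell growth, moved the other way. It stood at 57.9, 77.2, 65.1, 46.2 and 43.7 CPM in myopia libraries 1 to 5, against 12.2, 14.2, 12.9, 21.5 and 27.7 CPM in control libraries 1 to 5. Every myopia library was above every control library, and the log2 fold change was 1.71 ± 0.24 (SE; adjusted p = 4.31e-05). Control 4 and control 5 were the highest control libraries for this gene, and they were also the control libraries nearest to myopia on the first principal component.

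**Figure D2:**
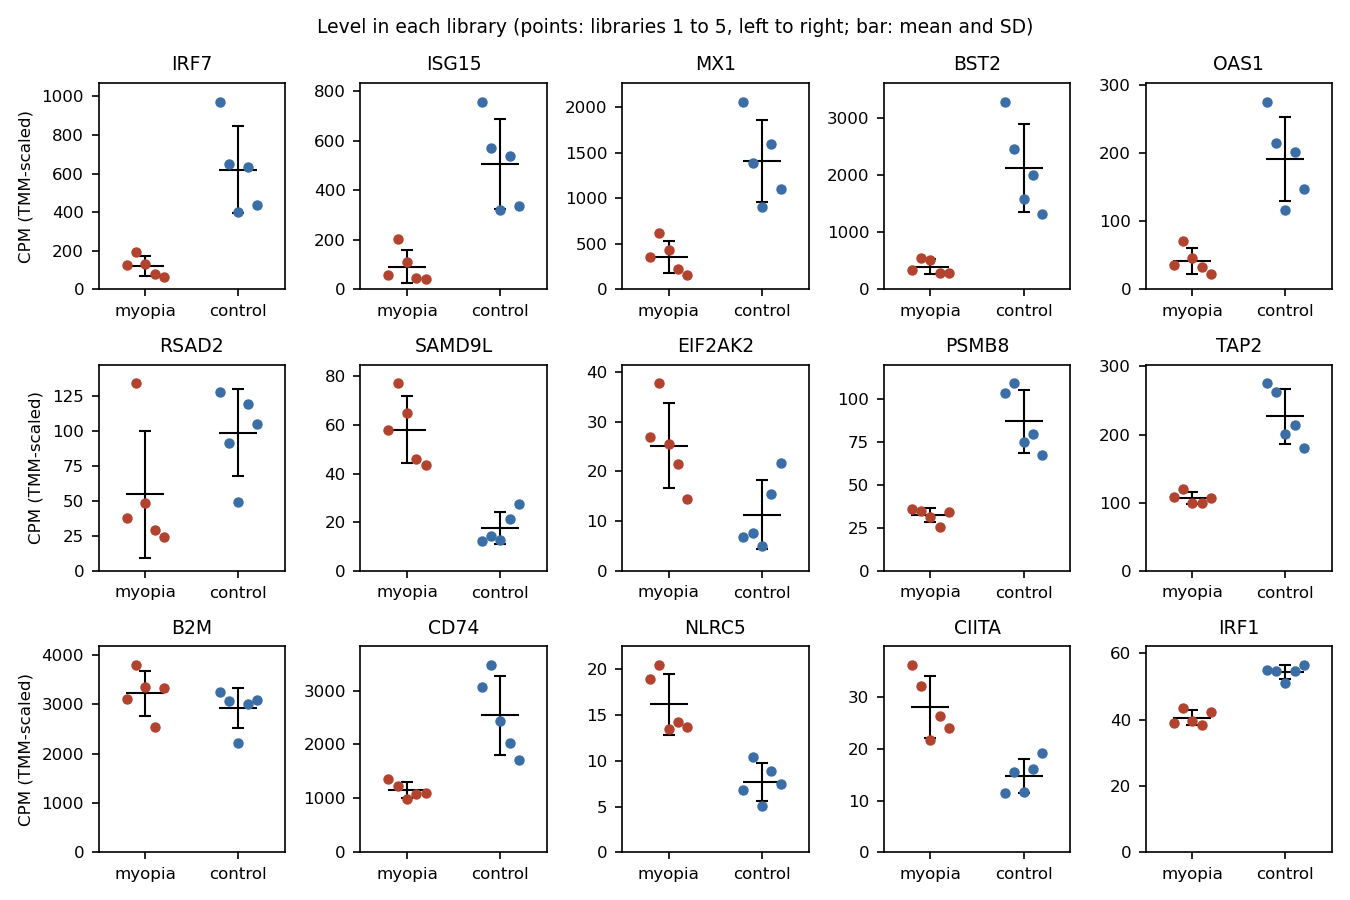
TMM-scaled CPM (vertical axis, from 0) of 15 genes in each myopia and control library; points are libraries 1 to 5 from left to right, and bars give the mean and SD (n = 5 each). IRF7, ISG15, MX1, BST2, OAS1, PSMB8, TAP2 and CD74 lie lower in every myopia library, SAMD9L, NLRC5 and CIITA lie higher, and RSAD2 and B2M overlap.

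Of 6 sensors of nucleic acid and enzymes that act on viral RNA, 3 were lower (all genes: 35.1%), 2 higher (all genes: 36.9%) and 1 did not pass. Their median log2 fold change was -0.36 and turned to 0.07 with total-count scaling. OAS1, which makes the oligoadenylate that activates RNase L, stood at 35.2, 71.7, 45.9, 33.4 and 22.2 CPM in myopia libraries 1 to 5, against 275, 215, 117, 201 and 148 CPM in control libraries 1 to 5 (log2 fold change -2.20 ± 0.31, adjusted p = 3.82e-05). ZBP1, a sensor of Z-form nucleic acid that triggers cell death, averaged 4.99 ± 1.60 CPM in myopia and 20.8 ± 8.93 CPM in control (log2 fold change -2.06 ± 0.31). The groups did not overlap for either gene. ADAR, which edits adenosine to inosine in double-stranded RNA, averaged 114 ± 16.7 CPM in myopia and 149 ± 19.7 CPM in control, with overlap, and fell less (log2 fold change -0.38 ± 0.12, adjusted p = 0.0103). With total-count scaling it was 0.068.

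The kinase and helicase of this group rose. EIF2AK2 (PKR), the kinase that stops translation when it binds double-stranded RNA, stood at 26.9, 37.7, 25.5, 21.4 and 14.4 CPM in myopia libraries 1 to 5, against 6.90, 7.68, 4.92, 15.6 and 21.6 CPM in control libraries 1 to 5. Control 4 and control 5 overlapped the myopia range. The log2 fold change was 1.15 ± 0.38 (adjusted p = 0.0157), and 1.97 with control 4 and control 5 left out together. IFIH1 (MDA5), a cytoplasmic helicase that senses long double-stranded RNA, averaged 17.1 ± 4.54 CPM in myopia and 11.8 ± 1.84 CPM in control (log2 fold change 0.54 ± 0.18, adjusted p = 0.0167). Without myopia 2, its highest library, it no longer passed (0.40, adjusted p = 0.052). IFIT3, an RNA-binding partner of other IFIT proteins, averaged 12.2 ± 4.21 CPM in myopia and 15.5 ± 4.23 CPM in control and did not pass (log2 fold change -0.34 ± 0.24, adjusted p = 0.207). Without myopia 2 it passed as lower (-0.57, adjusted p = 0.0284).

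The ADP-ribosylation genes of the pathway had log2 fold changes with a median of 0.08, which moved to 0.51 with total-count scaling and to -0.01 without myopia 2. PARP9 and DTX3L, which form a complex that boosts interferon signalling and are neighbours in the gene table, had log2 fold changes of 0.29 ± 0.12 (adjusted p = 0.0426) and -0.28 ± 0.14 (adjusted p = 0.0829). PARP9 thus passed as higher, with averages of 101 ± 8.27 CPM in myopia and 82.6 ± 15.2 CPM in control, but 10 of 22 alternatives ended that call, and its log2 fold change was 0.49 with control 4 and control 5 left out together. They included leaving out any of 7 single libraries, with adjusted p values of 0.0546 to 0.104. DTX3L passed as lower without myopia 2 (-0.38, adjusted p = 0.0183) and without control 3 (-0.35, adjusted p = 0.0276). PARP14, a mono-ADP-ribosyltransferase, averaged 29.3 ± 5.50 CPM in myopia and 27.8 ± 5.08 CPM in control (log2 fold change 0.08 ± 0.16, adjusted p = 0.676). With total-count scaling PARP14 passed as higher (0.51, adjusted p = 0.0108).

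Antigen presentation genes fell in 7 of 10 cases (all genes: 35.1%), rose in 2 (all genes: 36.9%) and did not pass in 1. Their log2 fold changes had a median of -1.003. All 3 catalytic subunits of the immunoproteasome, the protease that cuts peptides for MHC class I, fell. PSMB8 stood at 36.2, 35.1, 31.2, 25.8 and 34.1 CPM in myopia libraries 1 to 5, against 103, 109, 75.2, 79.9 and 67.2 CPM in control libraries 1 to 5 (log2 fold change -1.42 ± 0.14, adjusted p = 1.87e-06). PSMB9 stood at 39.8, 38.6, 30.7, 27.2 and 26.2 CPM in myopia libraries 1 to 5, against 125, 124, 92.8, 86.5 and 75.3 CPM in control libraries 1 to 5 (log2 fold change -1.63 ± 0.17, adjusted p = 2.08e-06). PSMB10 averaged 25.0 ± 2.62 CPM in myopia and 63.3 ± 14.4 CPM in control (log2 fold change -1.34 ± 0.15, adjusted p = 3.73e-06). None of the 3 overlapped between the groups.

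The constitutive catalytic subunits that the immunoproteasome replaces also fell. PSMB5, PSMB6 and PSMB7 had log2 fold changes of -1.04 ± 0.08, -1.07 ± 0.11 and -0.99 ± 0.11. Over the constitutive proteasome core, 10 of 14 genes fell (all genes: 35.1%) and 1 rose (all genes: 36.9%). The median of the core was -0.88 on the log2 scale. With total-count scaling 8 fell and 3 rose, with a median of -0.42. The other members with the smallest p values were PSMA7, an outer-ring subunit, at -1.38 ± 0.12, and PSMB3, an inner-ring subunit, at -1.46 ± 0.13. The count of each immunoproteasome subunit was therefore divided by that of the subunit it replaces in the same library. Such a ratio does not depend on scaling between libraries, and its size is not a molar ratio because transcript lengths were not used.

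PSMB8 over PSMB5 was 0.607, 0.672, 0.505, 0.416 and 0.565 in myopia libraries 1 to 5, against 0.818, 0.818, 0.623, 0.697 and 0.599 in control libraries 1 to 5. PSMB9 over PSMB6 was 0.690, 0.649, 0.509, 0.491 and 0.436 in myopia libraries 1 to 5, against 0.920, 0.904, 0.680, 0.759 and 0.831 in control libraries 1 to 5. PSMB10 over PSMB7 was 0.419, 0.348, 0.348, 0.326 and 0.411 in myopia libraries 1 to 5, against 0.485, 0.497, 0.494, 0.421 and 0.434 in control libraries 1 to 5. The ratios were lower on average in myopia for all 3 pairs, and the groups overlapped for PSMB8 over PSMB5 and PSMB9 over PSMB6. On the log2 scale the mean differences, myopia minus control, were -0.37, -0.57 and -0.34. A two-sided exact permutation test over the libraries gave p = 0.0476, 0.0159 and 0.00794 for these pairs in the same order. The last is the smallest p that 5 against 5 libraries can give. After Benjamini-Hochberg adjustment over the 3 pairs the exact test gave 0.0476, 0.0238 and 0.0238. These calls did not all hold when a library was left out: for PSMB8 over PSMB5 the adjusted p rose above 0.05 without any of myopia 1, 3, 4 or 5 or control 1, 2 or 4, and for the other pairs without control 1 or control 2.

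**Figure D3:**
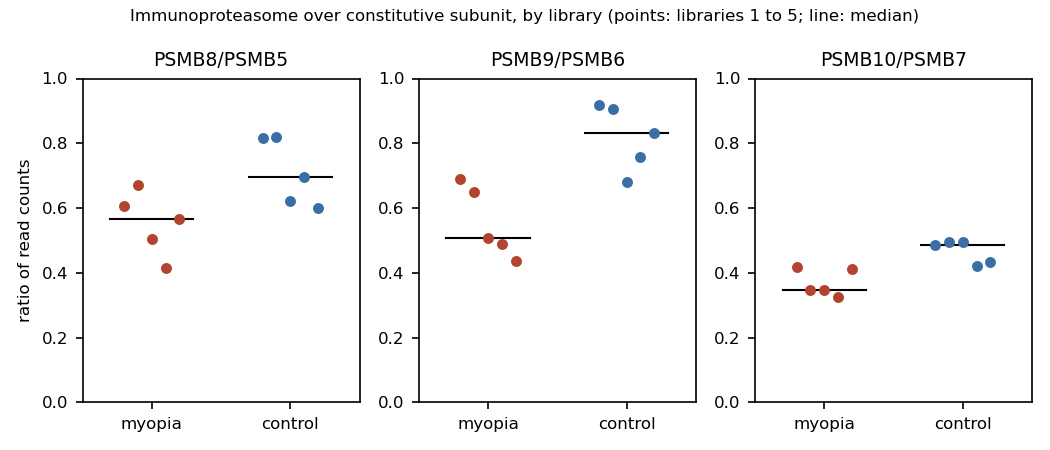
Ratio of read counts of each immunoproteasome subunit to the constitutive subunit it replaces (vertical axis, from 0 to 1) in each myopia and control library; points are libraries 1 to 5 from left to right, and lines are medians. PSMB10 over PSMB7 runs from 0.326 to 0.419 in myopia and from 0.421 to 0.497 in control, and the other pairs overlap at the edges of the groups.

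Peptide transport and loading followed the same direction except for the light chain. The transporter subunits TAP1 and TAP2, which carry peptides into the endoplasmic reticulum, are neighbours of PSMB9 and PSMB8 in the gene table. TAP2 stood at 108, 120.1, 98.9, 99.0 and 107 CPM in myopia libraries 1 to 5, against 275, 262, 201, 214 and 181 CPM in control libraries 1 to 5 (log2 fold change -1.09 ± 0.12, adjusted p = 3.56e-06). TAP1 averaged 45.6 ± 5.59 CPM in myopia and 86.2 ± 18.3 CPM in control (log2 fold change -0.92 ± 0.14). TAPBP (tapasin), the loading chaperone, averaged 62.0 ± 5.20 CPM in myopia and 112 ± 7.01 CPM in control (log2 fold change -0.85 ± 0.08). No library of 1 group overlapped the other for these 3 genes. B2M, the light chain of every MHC class I molecule, stood at 3097, 3794, 3336, 2535 and 3326 CPM in myopia libraries 1 to 5, against 3251, 3052, 2206, 2998 and 3079 CPM in control libraries 1 to 5. The groups overlapped and the difference did not pass (log2 fold change 0.14 ± 0.14, adjusted p = 0.385), but with total-count scaling B2M passed as higher (0.58, adjusted p = 0.00104).

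The MHC transactivators rose while the class II chaperone fell. NLRC5, the transactivator of MHC class I, TAP1 and PSMB9 genes, stood at 18.9, 20.5, 13.5, 14.2 and 13.7 CPM in myopia libraries 1 to 5, against 6.82, 10.5, 5.02, 8.86 and 7.42 CPM in control libraries 1 to 5 (log2 fold change 1.07 ± 0.20, adjusted p = 0.00026). CIITA, the master regulator of MHC class II genes, stood at 36.2, 32.2, 21.7, 26.4 and 24.1 CPM in myopia libraries 1 to 5, against 11.4, 15.5, 11.7, 16.1 and 19.2 CPM in control libraries 1 to 5 (log2 fold change 0.92 ± 0.17, adjusted p = 0.000293). Both were higher in every myopia library than in any control library. CD74, the invariant chain that escorts MHC class II and is itself driven by CIITA, stood at 1357, 1239.9, 996, 1075 and 1101 CPM in myopia libraries 1 to 5, against 3057, 3477, 2437, 2026 and 1705 CPM in control libraries 1 to 5 (log2 fold change -1.14 ± 0.18, adjusted p = 9.11e-05). Its myopia libraries were all below its control libraries, opposite to those of CIITA.

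Side by side, 17 of 26 interferon-induced genes fell and 4 rose (65.4% and 15.4%), and 7 of 10 antigen presentation genes fell and 2 rose (70% and 20%). Over all genes tested, 35.1% fell and 36.9% rose. The median log2 fold changes were -0.73 for interferon-induced genes and -1.003 for antigen presentation genes. With total-count scaling 10384 of all 14683 genes passed, 7633 of them as higher. Of the 26 interferon-induced genes 11 then fell and 6 rose, with a median of -0.28. Of the 10 antigen presentation genes 7 then fell and 3 rose, with a median of -0.54. The interferon-induced genes reached both the lowest and the highest values, from -2.45 to 1.71, and antigen presentation genes ranged from -1.63 to 1.07. Shares were also taken of the reads on lines with a symbol, without TMM factors. The interferon-induced genes with a line took 0.200% to 0.395% of these reads in myopia, against 0.520% to 0.940% in control, without overlap. The antigen presentation genes, most of whose reads came from B2M and CD74, took 0.491% to 0.600% in myopia, against 0.447% to 0.598% in control, and overlapped. On the TMM scale the antigen presentation sums were 3924 to 5418 CPM in myopia and 5280 to 7351 CPM in control, with less overlap. The interferon-induced sums were 1702 to 3571 CPM in myopia and 6148 to 12096 CPM in control.

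The sublists also varied among the libraries of a group. The SD of log2 CPM between libraries had a median of 0.39 in myopia and 0.41 in control for interferon-induced genes. For antigen presentation genes it was 0.19 in myopia and 0.31 in control, and over all genes tested 0.18 in myopia and 0.26 in control. Each gene was then set against its control mean, and the log2 values were averaged over the sublist. The interferon-induced mean was -0.89, -0.28, -0.73, -1.20 and -1.27 in myopia libraries 1 to 5, against 0.29, 0.09, -0.43, 0.14 and -0.09 in control libraries 1 to 5. Myopia 2 was thus above control 3, and the groups overlapped. The antigen presentation mean was -0.44, -0.45, -0.73, -0.79 and -0.65 in myopia libraries 1 to 5, against 0.16, 0.28, -0.18, -0.07 and -0.19 in control libraries 1 to 5, with no overlap.

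The same libraries recurred at the ends of the range. Myopia 2 was the highest of its group for 16 of the 17 interferon-induced genes that fell, and myopia 5 or myopia 4 was the lowest for all 17. Control 1 was the highest of its group for 14 of the 17, and control 3 or control 5 was the lowest for all 17. For the 7 antigen presentation genes that fell, control 5 was the lowest control library in 7, while the highest was control 2 in 4 and control 1 in 3. In myopia their highest library was myopia 1 for 4, myopia 5 for 2 and myopia 2 for 1. Without myopia 2, 20 of the 26 interferon-induced genes fell and 2 rose, with a median of -0.84. The antigen presentation counts without it were 7 lower and 2 higher.

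**Figure D4:**
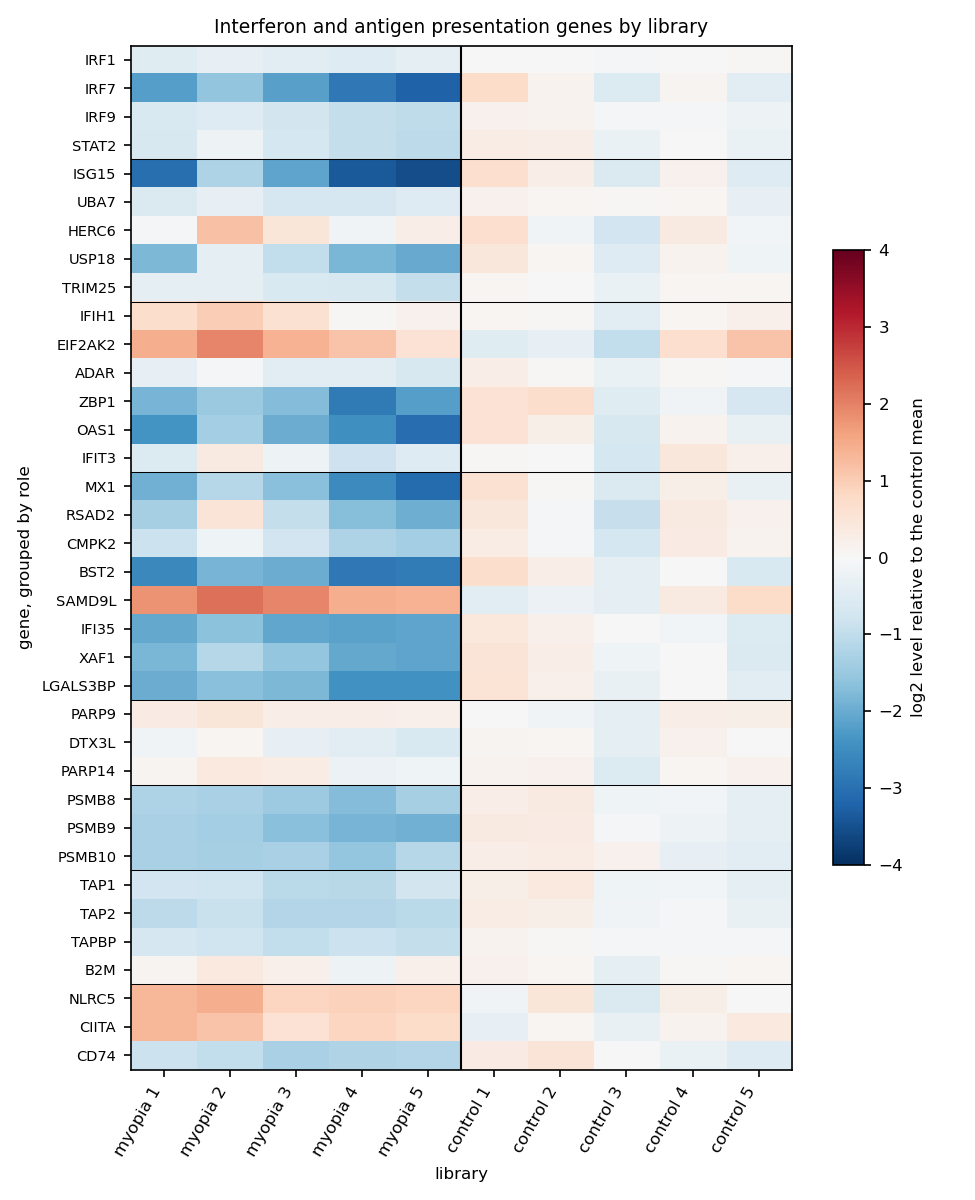
Log2 CPM of each of the 36 genes (rows, grouped by role) in each library (columns, myopia then control), relative to the gene's mean in control; blue is lower and red higher. IRF7, ISG15, OAS1, MX1 and BST2 are bluest in myopia 4 and myopia 5 and palest in myopia 2, and SAMD9L, EIF2AK2, NLRC5 and CIITA are red in myopia.

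**Figure D5:**
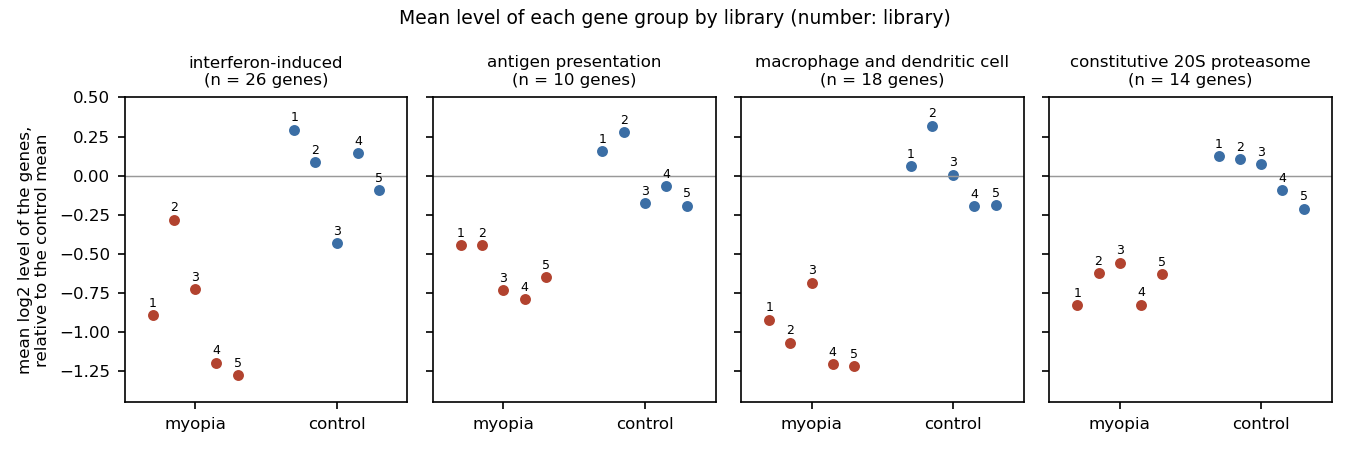
Mean log2 level of each gene group relative to its control mean (vertical axis) in each library, numbered, for interferon-induced genes (26), antigen presentation genes (10), macrophage and dendritic cell markers (18) and the constitutive proteasome core (14). Myopia 2 at -0.28 lies above control 3 at -0.43 for interferon-induced genes, and the groups do not overlap in the other panels.

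Upstream of these genes, 7 of 13 receptor, kinase and STAT genes and their SOCS inhibitors fell (all genes: 35.1%) and 2 rose (all genes: 36.9%). The median of the 13 was -0.52 on the log2 scale. With total-count scaling 4 fell and 5 rose, with a median of -0.07 against 0.47 over all genes. On that scale 73.5% of the calls over all genes were higher. IFNAR1, a chain of the type I interferon receptor, averaged 55.5 ± 6.82 CPM in myopia and 51.8 ± 4.14 CPM in control and did not pass (log2 fold change 0.10 ± 0.10, adjusted p = 0.383). IFNGR1, the ligand-binding chain for interferon gamma, averaged 64.9 ± 3.23 CPM in myopia and 67.1 ± 1.59 CPM in control and did not pass (log2 fold change -0.05 ± 0.07, adjusted p = 0.555). Of the other receptor chains, named after their values were seen, IFNGR2, the second chain for interferon gamma, fell without overlap (log2 fold change -0.57 ± 0.10, adjusted p = 0.000234). IL10RB, a chain shared by the type III interferon receptor, also fell without overlap (log2 fold change -0.52 ± 0.11, adjusted p = 0.00068). IFNAR2 and IFNLR1 did not pass, with log2 fold changes of -0.02 ± 0.08 and 0.14 ± 0.30. The kinase JAK2 rose with a log2 fold change of 1.58 ± 0.13, and its relative JAK1 fell with -0.74 ± 0.11. STAT3, which also serves cytokines of the interleukin-6 family, fell with -0.68 ± 0.09. SOCS1, an inhibitor of Janus kinases, fell with -1.51 ± 0.17.

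Of 16 genes that sense nucleic acid and lead to interferon production, 7 fell (all genes: 35.1%) and 3 rose (all genes: 36.9%). Their log2 fold changes had a median of -0.12. With total-count scaling 4 fell and 7 rose, with a median of 0.33 against 0.47 over all genes. TBK1, the kinase that activates IRF3, and TLR3, the endosomal receptor of double-stranded RNA, rose with log2 fold changes of 1.65 ± 0.12 and 2.26 ± 0.26. STING1, the adaptor of cytoplasmic DNA sensing, and TLR9, the endosomal receptor of unmethylated DNA, fell with -1.13 ± 0.12 and -1.003 ± 0.120. Of 6 interferon genes looked up, none of them an interferon alpha gene, IFNK, IFNL1 and IFNL3 matched no line. The other 3 were at the limit of detection. IFNB1 had 4, 0, 3, 3 and 0 reads in myopia libraries 1 to 5, against 12, 2, 4, 4 and 15 reads in control libraries 1 to 5, and IFNG had at most 2 reads in a myopia library and 5 in a control library. Both were below the filter and were not tested, and IFNE had 0 reads in every library. A count of 0 in a single library still allows an expected count of up to about 3 reads there.

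Of 16 further genes of MHC presentation that were tested, 9 fell (all genes: 35.1%) and 4 rose (all genes: 36.9%). The median of the 16 was -0.64 on the log2 scale. With total-count scaling 6 fell and 6 rose, with a median of -0.18 against 0.47 over all genes. PSME1 and PSME2, subunits of the interferon-inducible proteasome activator, fell with log2 fold changes of -1.27 ± 0.12 and -0.94 ± 0.09. IFI30, a lysosomal thiol reductase that unfolds antigens for MHC class II, averaged 51.7 ± 8.20 CPM in myopia and 172 ± 45.5 CPM in control (log2 fold change -1.73 ± 0.18). TAPBPL, a peptide editor related to tapasin, fell with -1.11 ± 0.12. All 4, which were named for the smallest p values of this list, were without overlap between the groups, as were PSMB8, PSMB9, TAP1, TAP2 and TAPBP. Of the 16, 9 had all myopia libraries below all control libraries, 2 had them above, and 5 overlapped. Over all genes tested 57.8% had no overlap.

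Most of the macrophage, T cell, NK cell and B cell markers tested were lower as well. For each marker list here, the shares over all genes tested were 35.1% lower and 36.9% higher on the TMM scale. Of 18 genes that mark macrophages or dendritic cells, 12 passed as lower and 0 as higher in edgeR (also 0 higher at an unadjusted p of 0.05, 0 by DESeq2 and limma-voom, and 1 with limma-voom quality weights). The 6 that did not pass were MRC1, CD163, ITGAM, ITGAX, FLT3 and LYZ, with log2 fold changes from -0.28 to 0.44. The median of the 18 was -1.23 on the log2 scale, and their summed level was 536 to 809 CPM in myopia and 1568 to 2449 CPM in control. Of 9 T and NK cell markers tested, 7 fell, with summed levels of 4.26 to 7.65 CPM in myopia and 12.0 to 31.7 CPM in control. Of 3 B cell markers tested, 2 fell, with summed levels of 1.24 to 3.34 CPM in myopia and 2.59 to 9.82 CPM in control. With total-count scaling 12 of these 18 genes were lower and 3 higher, 5 of the 9 T and NK cell markers fell, and 0 of the 3 B cell markers passed in edgeR, with 1 lower at an unadjusted p of 0.05; without that scaling, DESeq2 and limma-voom each called 2 of the 3 lower. No marker of these lists was at 0 in all libraries. Of 6 endothelial markers 2 fell and 2 rose, with summed levels of 752 to 1134 CPM in myopia and 951 to 1178 CPM in control. Of the 10 fibroblast genes 4 fell and 4 rose, with a median of 0.017 on the log2 scale. Their summed levels were 70674.5 to 97111.5 CPM in myopia and 126682 to 161745 CPM in control. Of the 2 markers shared by all leukocytes 1 fell and 1 rose, and their sums overlapped, with 29.8 to 41.9 CPM in myopia and 34.4 to 55.9 CPM in control. All 4 red blood cell genes fell, with summed levels of 100.1 to 456 CPM in myopia and 2504 to 10560.2 CPM in control.

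The part of these cells in the interferon and antigen presentation results was not tested. Relative to the control mean, the macrophage and dendritic cell markers averaged -0.92, -1.07, -0.69, -1.21 and -1.22 in myopia libraries 1 to 5, against 0.06, 0.32, 0.01, -0.19 and -0.19 in control libraries 1 to 5. The highest myopia library was myopia 3 for these markers, myopia 2 for the interferon-induced mean and myopia 1 and myopia 2, close together, for the antigen presentation mean. The highest control library was control 2 for these markers and for the antigen presentation mean, and control 1 for the interferon-induced mean.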

How the data were processed

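The deposited values are raw read counts per gene symbol, 1 column per library, with no normalization by the authors. Per the labels' protocols, total RNA went into a SMARTER mRNA-Seq kit. Not given in the sources used here are the aligner, counter, annotation and strand setting. The submitters' processing notes name the mouse builds GRCm38 and mm10 without a role, so no coordinate or length is given. How reads shared by near-identical genes (such as the MX, OAS and IFIT families) or by overlapping genes were counted is likewise not given. Column names matched the library titles.

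Of 18079 lines, 437 without a symbol (0.751% to 0.824% of counts in myopia, 1.18% to 1.69% in control) were left out. With filterByExpr (minimum count 10, minimum total 15), 14683 genes passed and went into edgeR 4.0.16 (R 4.3.3), with TMM factors (1.11 to 1.25 in myopia, 0.777 to 0.968 in control), robust glmQLFit, glmQLFTest and Benjamini-Hochberg adjustment over all genes, threshold 0.05. Each SE was taken from the log2 fold change and its F statistic (log2 fold change over root F). The script was run on simulated data in which few genes changed, equally many up and down. In these data most genes passed, so that run does not test the scaling. Counts of every pair of replicates in a group differed beyond sampling noise (chi-square over its degrees of freedom, 18.7 to 122). No label names a batch.

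The members and lists were chosen with earlier results of these data known. All members are named; from each further pathway list, at most 4 genes past the threshold by smallest p, and JAK1, IFNAR1, IFNGR1, PSMB5, PSMB6 and PSMB7 in any case. Another gene that the rule names in any case is not reported here. A guinea pig gene table (mCavPor4.1), which held 34 of the 37 symbols, served only for names and neighbours. Alternatives were other scaling factors, filters, DESeq2 1.42.0, limma-voom (limma 3.58.1) with and without quality weights, dispersion that is not robust, a replicate block, lines of a symbol summed, each library left out, and control 4 and 5 left out.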

Additional observations from a re-analysis of the deposited data

Results flagged for a closer look

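For 78 group values (each gene tested and each subunit ratio, in each group of 5 libraries), the gap of an end library to its nearest neighbour was compared with the whole range of the group. In 5 of them that share exceeded 0.71, and chance alone gives about 1 in 20. RSAD2 in myopia 2 stood at 134 CPM, against 24.2 to 48.8 CPM in the other myopia libraries. IFI35 in myopia 2 stood at 41.3 CPM, against 29.5 to 31.3 CPM in the others. In control 3, DTX3L stood at 36.0 CPM, against 47.5 to 51.9 CPM in the other control libraries. PARP14 in control 3 stood at 18.8 CPM, against 28.5 to 30.7 CPM in the others, and B2M there stood at 2206 CPM, against 2998 to 3251 CPM.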

How the results depend on the processing

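Of the 30 genes called, 22 kept their direction and their side of the threshold in all 22 alternatives: 18 that fell and 4 that rose (EIF2AK2, SAMD9L, NLRC5 and CIITA). Total-count scaling moved the medians to -0.28 for interferon-induced and -0.54 for antigen presentation genes and turned the log2 fold changes of IRF1 (0.021), ADAR (0.068), IFIT3 (0.080) and DTX3L (0.17) positive; the median of all genes was then 0.47, against 0.03 with TMM, and the cause was not tested further. PARP14 lay between -0.028 and 0.147 when single libraries were left out.

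The replicate block called 10103 genes, against 10561 without it, and 25 members as lower and 5 as higher. The numbers showed no sign of pairing the samples. Deviations of libraries with the same number correlated between -0.13 and 0.01, and no myopia library correlated best with the control library of its own number. Such correlations alone cannot exclude pairing. Under the block, paired sign flips of the 3 subunit ratios gave differences of -0.37, -0.57 and -0.34 with an adjusted exact p of 0.0625 each, the smallest that 5 pairs allow. With control 4 and control 5 left out together the differences were -0.45, -0.60 and -0.42 (adjusted exact p = 0.0714 each). With single libraries left out they ranged from -0.44 to -0.27 (adjusted exact p 0.0317 to 0.103) for PSMB8 over PSMB5, -0.66 to -0.49 (adjusted exact p 0.0119 to 0.0595) for PSMB9 over PSMB6 and -0.38 to -0.29 (adjusted exact p 0.0119 to 0.0595) for PSMB10 over PSMB7. Leaving out 1 library does not change the smallest p that the exact test can give, 0.00794 before adjustment. Leaving out control 4 and control 5 together raises it.

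IFI44, IFNB1, IFNG and IFNE were below the count filter and were not tested.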

Other observations

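A few values outside the naming rule were picked after they were seen. DHX58 (LGP2), a helicase that tunes RIG-I and MDA5 signalling and is itself interferon-induced, averaged 33.5 ± 14.7 CPM in myopia and 168 ± 44.4 CPM in control (log2 fold change -2.32 ± 0.28, adjusted p = 1.15e-05). Its relative DDX58 (RIG-I) averaged 49.3 ± 22.3 CPM in myopia and 38.9 ± 9.75 CPM in control and did not pass (log2 fold change 0.34 ± 0.27, adjusted p = 0.282). MX1 had a second line in the table, at 45.2, 103, 51.8, 25.7 and 17.1 CPM in myopia libraries 1 to 5, against 427, 294, 178, 338 and 207 CPM in control libraries 1 to 5 (log2 fold change -2.57 ± 0.43). The library order of that line was the same as that of the line with more reads, with myopia 2 highest and myopia 5 lowest in myopia, and control 1 highest and control 3 lowest in control. RFX5, a subunit of the factor that recruits NLRC5 and CIITA to MHC promoters, rose with a log2 fold change of 1.04 ± 0.14, and its partner RFXANK fell with -1.04 ± 0.19. PTPRC, a marker of all white blood cells, averaged 20.5 ± 3.53 CPM in myopia and 8.65 ± 2.46 CPM in control (log2 fold change 1.25 ± 0.19). CORO1A, the other listed marker of all leukocytes, went the other way. It averaged 14.5 ± 2.37 CPM in myopia and 32.3 ± 7.76 CPM in control (log2 fold change -1.15 ± 0.16). Most macrophage markers also fell.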
